A study of Mus musculus with 4 samples.

Results

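The genes described here build the machinery that copies DNA and the switch that starts it, in mouse regulatory T-cells sorted by whether they secreted IL-10. They are 47 genes chosen by their role, and 46 of them were read by at least 1 probe set that names the gene alone, out of 18193 genes so read on the array. Chaf1a was not analysed here. CD4+CD25+ T-cells came from lymph nodes of C57BL/6 mice aged 6 to 12 weeks, 3 days after injection of the CD28 superagonist D665, an antibody that activates T-cells through CD28 without a separate signal to the T-cell receptor. Overnight, all cells received recombinant human IL-2 at 200 U/ml together with antibodies to CD3 at 2 µg/ml and to CD28 at 5 µg/ml, and were then stained for IL-10 and sorted, which gave 2 IL-10+ and 2 IL-10- samples with 1 Affymetrix array each. By the labels the cells were chosen on CD4, CD25 and IL-10 and not on Foxp3, the lineage factor of regulatory T-cells, and all samples had received the antibody and the culture, so no resting cells were measured.

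A cell that is about to divide first prepares its origins of replication in G1 phase. The origin recognition complex sits on the origin, and CDC6 and CDT1 help it to load a ring of MCM proteins. In S phase CDC45 and the GINS complex join the ring, which becomes the helicase that unwinds DNA. DNA polymerase alpha with primase begins each strand, polymerases delta and epsilon extend it, and the sliding clamp PCNA, placed by replication factor C, holds them on the template. E2F transcription factors switch many of these genes on, and cyclin E with its kinase promotes entry into S phase. In T-cells the same genes are induced when an antigen receptor signal and IL-2 drive clonal expansion.

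Because E2F is the common switch of this gene group, promoters were searched for its site. The window ran from 250 bases before to 50 bases after each RefSeq start (GRCm38.p6), and the words searched on both strands were TTTCCCGC, TTTCGCGC, TTTGCCGC and TTTGGCGC, with overlapping matches counted separately. Of 39 members with a window, 14 held such a word (35.9%), against 3.81% of 14452 genes on the array with a window. CCAAT boxes (CCAAT, both strands) stood in 61.5% of these members and 42.0% of the genes, and the CHR element (TTTGAA, both strands), known from genes of late cell cycle phases, in 15.4% and 15.7%. A match is only a string of letters, and binding was not measured. The stretches below lie upstream of the start and show the word in capitals, for genes of the helicase, the origin and the polymerases that fell or did not pass, and for Rfc3, which rose.
Mcm7: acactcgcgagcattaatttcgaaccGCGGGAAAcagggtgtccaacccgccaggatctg
Mcm6: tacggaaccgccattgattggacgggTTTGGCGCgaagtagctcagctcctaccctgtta
Mcm5: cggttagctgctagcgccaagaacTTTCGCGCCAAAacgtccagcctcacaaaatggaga
Gins3: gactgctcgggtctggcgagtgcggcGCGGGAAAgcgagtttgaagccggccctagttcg
Cdc6: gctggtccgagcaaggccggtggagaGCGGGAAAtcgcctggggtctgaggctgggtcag
Orc1: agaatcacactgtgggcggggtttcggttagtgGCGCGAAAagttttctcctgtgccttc
Pola1: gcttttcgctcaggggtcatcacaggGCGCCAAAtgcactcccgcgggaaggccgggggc
Rfc3: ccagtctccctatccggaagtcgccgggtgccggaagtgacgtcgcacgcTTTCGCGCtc

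These stretches lie at chr5:138172015-138172074 for Mcm7, chr1:128359719-128359778 for Mcm6, chr5:151651209-151651268 for Rfc3 and chrX:93632260-93632319 for Pola1, all on the minus strand. Those on the plus strand lie at chr8:75109332-75109391 for Mcm5, chr8:95633492-95633551 for Gins3, chr11:98907987-98908046 for Cdc6 and chr4:108579394-108579453 for Orc1. In Mcm5 a word on each strand overlaps, which gives a run of 12 capitals. The word shown for Rfc3 ends 2 bases before the start and that shown for Mcm7 157 bases before it. The windows that these stretches come from hold 2 matches each for Rfc3 and Mcm7 and 3 for Mcm6, and not all are shown. A further window of Mcm7 holds none.

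Most of the 46 genes were lower in IL-10+ cells. Each was represented by its brightest probe set, the one with the highest mean over the 4 arrays. A gene is said to have fallen or risen where the adjusted p of limma was under 0.05, after Benjamini-Hochberg adjustment over 45037 probe sets, and each difference is the mean of the IL-10+ arrays less that of the IL-10- arrays. By this measure 36 fell, 2 rose and 8 did not pass, with a median difference of -0.44. Over all 18193 genes, 22.9% fell and 8.37% rose, with a median difference of -0.01. Over all 45037 probe sets, 16.2% fell and 13.6% rose. Bright probe sets fell more often in general: among 3530 genes with a mean of 9 or more, 45.5% fell, 14.7% rose and the median was -0.19. Of the 25 members in that range, 23 fell and the median was -0.59. Both IL-10+ arrays lay below both IL-10- arrays in 40 members, against 37.8% of all genes. The members were picked with earlier results of these data known, so these counts are a description of the group and not a test of it.

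**Figure D1:**
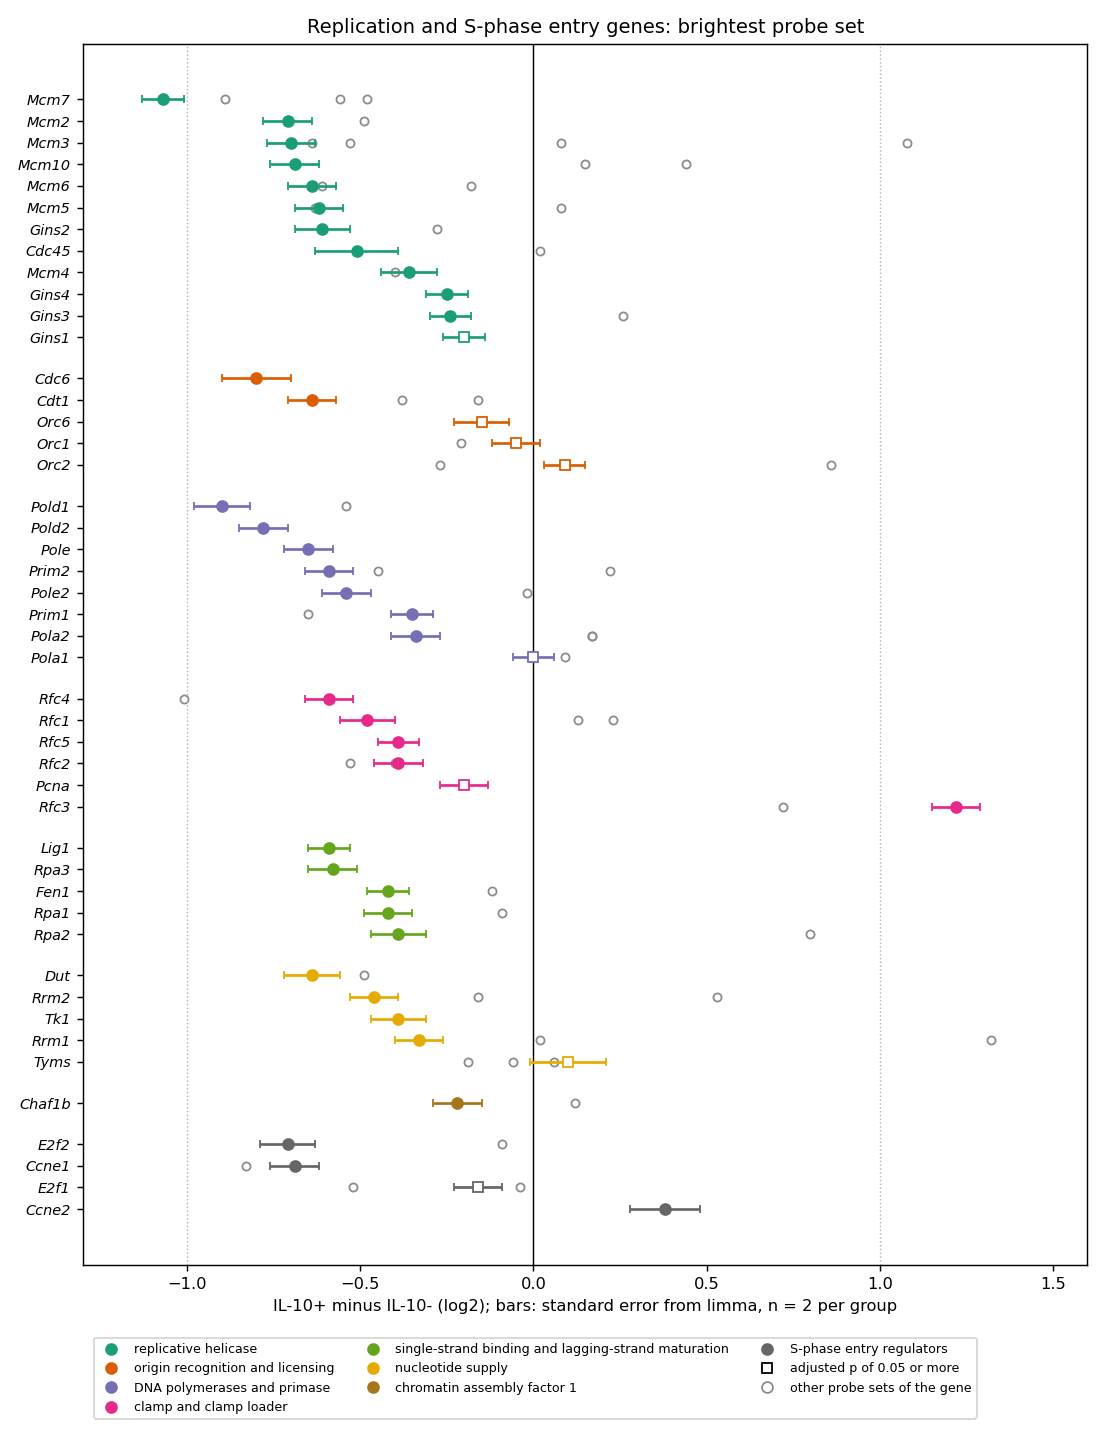
Horizontal axis, log2 difference (IL-10+ less IL-10-) for the brightest probe set of each member, coloured by role, with standard errors from limma (n = 2 arrays per group), and for its other probe sets (open grey circles). White squares did not pass an adjusted p of 0.05, and dotted lines mark a difference of 1. Most members lie left of 0, Mcm7 farthest at -1.07, while Rfc3 stands at 1.22 and several dimmer probe sets lie to the right.

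Facts of the arrays bear on all these values. Il10, whose product served to sort the cells, read 12.02 and 12.00 on the IL-10+ arrays and 10.41 and 10.37 on the IL-10- arrays, as the labels say. Array medians ran from 6.31 to 6.41. The values are read as log2, but the sources do not state the base of the deposited table. A figure legend of the study gives its fold changes as natural logs, and fold values here rest on the log2 reading. The 5' probe sets of the bacterial poly-A transcripts added to the RNA were higher on IL-10+ arrays by 0.62 to 2.16 (8 probe sets). The middle probe sets of these transcripts were higher by 0.31 to 1.16, while their 3' probe sets differed by -0.23 to 0.21. Control probe sets of Gapdh showed the like, with a difference of 0.88 at the 5' end, where IL-10- replicates 3 and 4 read 13.42 and 12.72, and of 0.02 at the 3' end. Those of Actb differed by 1.12 at the 5' end and also by 0.40 at the 3' end. At its 5' end IL-10- replicate 4 read above replicate 3 (13.06 and 12.82). Of 10 genes that check for regulatory CD4 T-cells, Ctla4 (0.87), Cd4 (0.51) and Cd5 (0.21) were higher and Foxp3 (-0.72) and Ikzf2 (-0.55) lower, all of them well above the array median. Among 13 B cell and plasma cell markers, 9 were lower in IL-10+ samples, led by Jchain and Mzb1 (-2.75 each). Their mean level was 7.31 to 7.32 on IL-10+ and 8.13 to 8.16 on IL-10- arrays, and 5 of the 13 lay below the array median, among them Pax5 (6.12 to 6.21 on the 4 arrays). Ighm was bright, at 12.36 and 12.30 on IL-10+ and 12.97 and 13.14 on IL-10- arrays (-0.73). Ms4a1 (-1.22), Cd79b (-1.06) and Cd22 (-0.90) were among the 9 that were lower. Of 5 NK cell markers 2 were lower (list mean 5.87 in IL-10+ and 6.14 to 6.19 in IL-10- samples) and of 2 CD8 T-cell markers 1, and the 2 erythroid markers did not pass. Of 10 markers of dendritic cells and macrophages, 3 were higher (Cd68, Cd14 and Csf1r) and H2-Ab1 was lower. The part of other cells in the results below was not tested. In such sorted pools, fewer cells in S phase and less replication RNA per cell cannot be told apart. The labels do not state whether replicates came from different mice or sorts. The p-values therefore reflect no more than the spread of these 4 samples, which can be technical.

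The subunits of the replicative helicase were lower together. Of 12 genes, 11 fell and Gins1 did not pass (-0.20, adjusted p = 0.0515), with a median of -0.61. Mcm7, a subunit of the MCM ring, read 11.26 and 11.23 on the IL-10+ arrays and 12.28 and 12.35 on the IL-10- arrays. The groups lay far apart relative to their spread, with a difference of -1.07 (standard error 0.06, adjusted p = 3.67e-05), or 2.10-fold on the log2 reading. It was the only member at least 2-fold lower with an adjusted p under 0.001, a limit passed downwards by 0.792% of all genes and 1.47% of those with a mean of 9 or more, and by 0.575% of all probe sets. If the values are natural logs, 8 members pass it, and the share of all genes under that reading was not counted. After quantile normalization and after cyclic loess normalization no member passed that limit. All 4 probe sets of Mcm7 fell, with differences from -1.07 to -0.48. The brightest one carries the suffix s, which marks probes shared by several transcripts, and the next, without it or the suffix x, differed by -0.56.

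Mcm2, another ring subunit and the one that carries histones at the fork, read 9.44 and 9.43 in IL-10+ and 10.09 and 10.21 in IL-10- samples. Its difference of -0.71 (standard error 0.07, adjusted p = 0.000249) was larger than the gap between replicates in either group. Mcm10, which helps to start the assembled helicase, was dimmer, at 7.74 and 7.69 in IL-10+ and 8.34 and 8.48 in IL-10- samples, and differed by -0.69 (adjusted p = 0.000338). Mcm3, a ring subunit with 5 probe sets, read 10.15 and 10.20 against 10.80 and 10.95 with the brightest of them (-0.70, adjusted p = 0.000369). Averaged over their probe sets, neither gene passed, at -0.04 for Mcm10 (adjusted p = 0.668) and -0.14 for Mcm3 (0.0684). The ring genes not yet described, Mcm6, Mcm5 and Mcm4, differed by -0.64, -0.62 and -0.36. With its brightest probe set, each of the ring's subunits, Mcm2 to Mcm7, was lower in both IL-10+ samples than in both IL-10- samples.

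The partners that turn the ring into a working helicase were lower too. Cdc45 read 7.84 and 7.78 in IL-10+ and 8.12 and 8.52 in IL-10- samples, the widest replicate gap of the helicase genes (-0.51, adjusted p = 0.0157), and its dimmer probe set, at a difference of 0.02, did not pass. Of the GINS genes, Gins2 differed by -0.61, Gins4 by -0.25 and Gins3 by -0.24. Some calls were lost when an array was left out, with differences about as large. Without IL-10+ replicate 1, Gins3, Gins4 and Mcm4 did not pass (adjusted p = 0.125, 0.112 and 0.0593), and without IL-10+ replicate 2, Gins3, Gins4 and Cdc45 did not (0.138, 0.137 and 0.057).

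**Figure D2:**
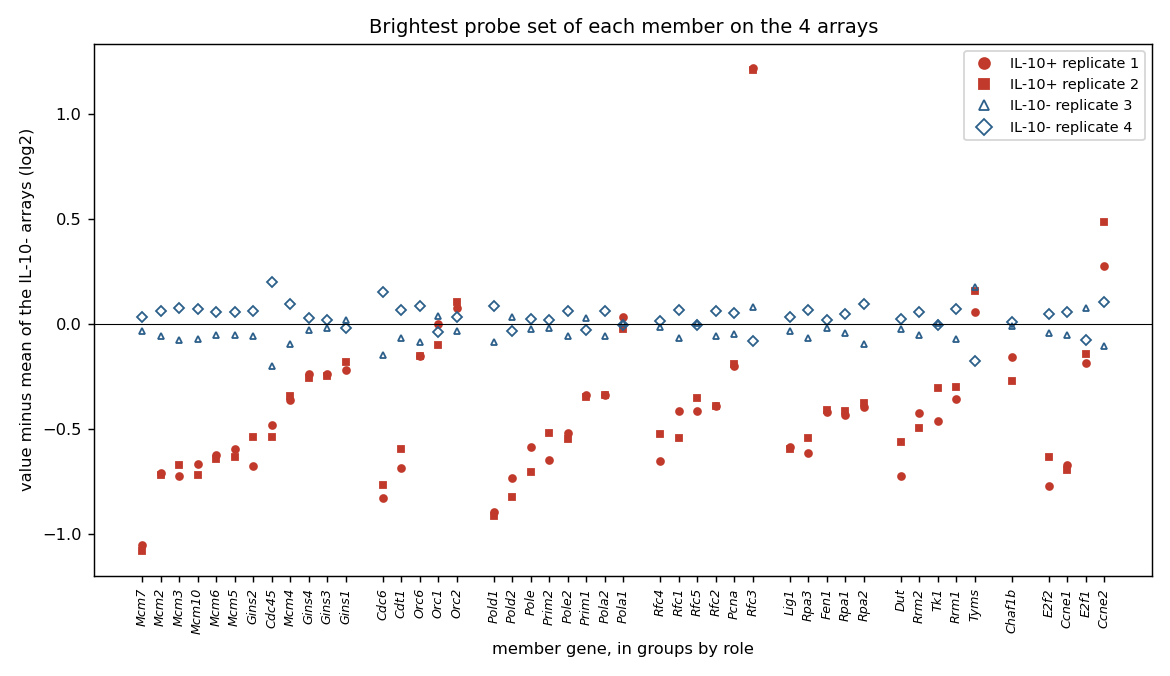
Value of each member's brightest probe set on each array, as log2 distance from the IL-10- mean (vertical axis), by group of genes. Filled red symbols are the IL-10+ arrays and open blue symbols the IL-10- arrays. For Mcm7, both IL-10+ arrays lie more than 1 below the IL-10- mean, and only Rfc3 stands more than 1 above it.

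At the origin, the loading factors fell, while genes of the origin recognition complex did not pass with their brightest probe sets. Cdc6, the ATPase that recruits the MCM ring, read 8.71 and 8.77 in IL-10+ and 9.39 and 9.69 in IL-10- samples. With a difference of -0.80 (standard error 0.10, adjusted p = 0.000801), the gap between groups was larger than that between the IL-10- replicates. Cdt1, which delivers the ring with CDC6, read 10.57 and 10.66 against 11.19 and 11.32 (-0.64, adjusted p = 0.000554). Its second probe set fell as well, by 0.38 on the log2 scale. The brightest probe sets of the recognition complex genes differed by -0.15 for Orc6 (adjusted p = 0.183), -0.05 for Orc1 (0.651) and 0.09 for Orc2 (0.363). The difference between loading factors and recognition complex was not itself tested. Dimmer probe sets of Orc1 (-0.21) and Orc2 (-0.27) fell, and a further one of Orc2 rose (0.86). Without IL-10- replicate 3, Orc6 passed as lower (-0.24, adjusted p = 0.0268).

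Polymerase and primase genes fell except for the catalytic subunit of polymerase alpha. Of 8 genes 7 fell, with a median of -0.56. Pold1, the catalytic subunit of polymerase delta, read 9.08 and 9.06 in IL-10+ and 9.89 and 10.06 in IL-10- samples. This was the largest fall of the group, -0.90 (standard error 0.08, adjusted p = 0.000133), and its second probe set fell by 0.54 on the log2 scale. Pold2, the accessory subunit of the same enzyme, read 8.74 and 8.65 against 9.51 and 9.44 (-0.78, adjusted p = 0.000164). Pole, the catalytic subunit of polymerase epsilon, read 8.03 and 7.91 against 8.59 and 8.64 (-0.65, adjusted p = 0.000411). Its partner Pole2 fell by 0.54 on the log2 scale, so all 4 of these genes for the enzymes that extend the strands were lower.

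The primase genes, whose product lays down the RNA primer, were also lower. Prim2, the large primase subunit, read 8.65 and 8.78 in IL-10+ and 9.28 and 9.32 in IL-10- samples (-0.59, adjusted p = 0.000668). Prim1, the catalytic subunit, differed by -0.35 with its brightest probe set and by -0.65 with its other one. Pola2, a subunit of polymerase alpha, fell by 0.34 on the log2 scale, though not without IL-10+ replicate 2 (adjusted p = 0.0516), and its second probe set, at 0.17, did not pass. Pola1, the catalytic subunit of polymerase alpha, read 8.13 and 8.07 in IL-10+ and 8.10 and 8.09 in IL-10- samples. These values overlap, with a difference of 0.00 (standard error 0.06, adjusted p = 0.993).

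The clamp loader held the clearest exception. Replication factor C is a ring of a large and several small subunits, and the genes of 4 of them fell: Rfc4 (-0.59), Rfc1 (-0.48), Rfc2 (-0.39) and Rfc5 (-0.39). Rfc3, a small subunit, went the other way. It read 11.22 and 11.21 in IL-10+ and 10.08 and 9.92 in IL-10- samples, with a difference of 1.22 (standard error 0.07, adjusted p = 3.73e-05). Its other probe set read 10.88 and 10.98 against 10.17 and 10.26 and rose too, by 0.72 (adjusted p = 0.000278). Rfc3 rose under each of the 4 fits with an array left out and after each other normalization, and it was the one loader gene that did so.

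Rfc4, the largest fall among the loader genes, read 9.13 and 9.26 in IL-10+ and 9.77 and 9.80 in IL-10- samples (adjusted p = 0.000636), and its other probe set fell by 1.01 on the log2 scale. Rfc1, the large subunit, read 8.61 and 8.48 against 8.96 and 9.09 (adjusted p = 0.00293). Rfc2 fell in all 3 of its probe sets. Pcna, the clamp itself and the brightest of all members, read 12.77 and 12.78 in IL-10+ and 12.92 and 13.02 in IL-10- samples. The groups did not overlap, but the difference of -0.20 did not pass (standard error 0.07, adjusted p = 0.0606). It passed as lower after median centring (-0.27, adjusted p = 0.0172) and was -0.25 (0.0222) when IL-10- replicate 3 was left out.

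**Figure D3:**
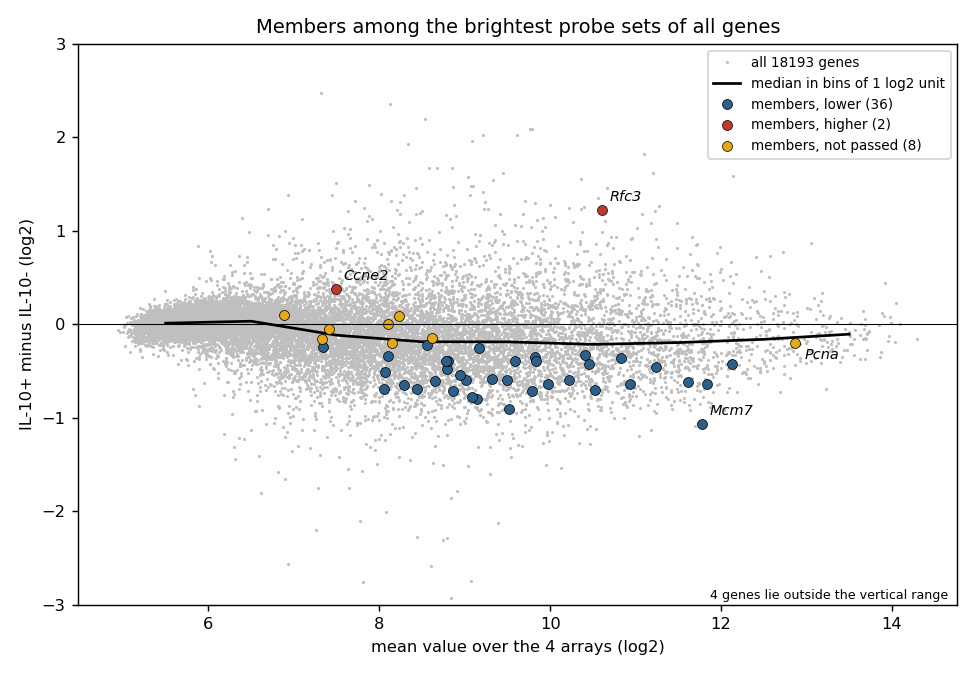
Mean value over the 4 arrays (log2, horizontal axis) against the difference between IL-10+ and IL-10- (log2, vertical axis) for the brightest probe set of all 18193 genes (grey), with members in colour by their call and the median of all genes in bins of 1 log2 unit (black line). The median line lies below 0 for bright genes, and most members lie below that line, with Rfc3 at 1.22 above it.

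Genes that handle single-stranded DNA and finish the lagging strand fell in all 5 cases. Lig1, the ligase that seals Okazaki fragments, read 9.93 and 9.92 in IL-10+ and 10.48 and 10.55 in IL-10- samples (-0.59, standard error 0.06, adjusted p = 0.000423). Rpa3, the smallest subunit of the single-strand binding protein RPA, read 8.99 and 9.06 against 9.54 and 9.67 (-0.58, adjusted p = 0.000873). Rpa1, the large subunit, read 11.91 and 11.93 against 12.30 and 12.39 (-0.42, adjusted p = 0.0022). Both groups were tight in each of these genes. Fen1, the nuclease that trims the flap at the end of each fragment, read 10.24 and 10.25 against 10.64 and 10.68 (-0.42, adjusted p = 0.00186). The other probe sets of Fen1 (-0.12) and Rpa1 (-0.09) did not pass, and the brightest one of Fen1 carries the suffix x, which marks probes that can match unrelated transcripts. The brightest probe sets of Mcm5, Pold1, Rrm2 and Ccne1 carry this suffix too.

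In nucleotide supply, 4 of 5 genes fell by their brightest probe sets. Dut, which removes dUTP so that uracil stays out of DNA, read 9.57 and 9.73 in IL-10+ and 10.27 and 10.32 in IL-10- samples (-0.64, standard error 0.08, adjusted p = 0.000595), and both of its probe sets fell. Rrm2, the small subunit of ribonucleotide reductase, read 11.04 and 10.97 against 11.41 and 11.52 (-0.46, adjusted p = 0.00197). Tk1, the thymidine kinase of S phase, read 8.51 and 8.67 against 8.98 and 8.97 (-0.39, adjusted p = 0.00635, and 0.0615 without IL-10+ replicate 1). Rrm1, the large reductase subunit, read 10.21 and 10.27 against 10.50 and 10.64 (-0.33, adjusted p = 0.0113, and 0.087 without IL-10+ replicate 1). Without that replicate 2 of the 5 genes fell. Tyms, thymidylate synthase, was dim in all its 4 probe sets, and the brightest read 6.89 and 6.99 in IL-10+ and 7.01 and 6.66 in IL-10- samples. These overlap, and none of the 4 passed.

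The reductase is the enzyme that makes deoxynucleotides, and its probe sets did not give 1 direction. The second probe set of Rrm1 read 10.53 and 10.49 in IL-10+ and 9.50 and 8.88 in IL-10- samples, and rose by 1.32 (standard error 0.17, adjusted p = 0.00101). The second of Rrm2 read 9.94 and 10.04 against 9.48 and 9.44, and rose by 0.53 (adjusted p = 0.00089). The brightest probe set of Rrm2 carries the suffix x, so that with probe sets free of the suffixes x and s the gene rose instead. Averaged over all its probe sets Rrm1 rose by 0.34 (adjusted p = 0.0118) and Rrm2 differed by -0.03 (adjusted p = 0.714).

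Such opposite probe sets were found for 8 of the 35 members with several probe sets (22.9%), against 12.0% of 9010 genes with several on the array. They were Mcm3, Mcm10, Gins3, Orc2, Rfc1, Rpa2, Rrm1 and Rrm2. In Mcm3, the 3 brightest probe sets fell, with differences from -0.70 to -0.53, and the fourth averaged 8.96 (SD 0.06, n = 2) in IL-10+ and 7.88 (SD 0.23, n = 2) in IL-10- samples, a rise of 1.08 (adjusted p = 0.000267). In Rpa2, which encodes the middle subunit of RPA, the brightest read 9.39 and 9.41 against 9.69 and 9.88 (-0.39, adjusted p = 0.00763) and the other 9.08 and 9.14 against 8.52 and 8.10 (0.80, adjusted p = 0.00247). Mcm10 (0.44), Gins3 (0.26), Orc2 (0.86) and Rfc1 (0.23) each had a dimmer probe set that rose.

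Over all 54 probe sets of members other than the brightest, 22 fell, 9 rose and 23 did not pass, whereas 13.4% of all such probe sets on the array fell and 20.0% rose. In 10 of the 35 members with several probe sets every one fell: Mcm2, Mcm4, Mcm7, Gins2, Prim1, Pold1, Rfc2, Rfc4, Dut and Ccne1. The share of all genes with several probe sets in which every one fell was not counted. Replicates of the IL-10- group are given here beside the added transcripts. IL-10- replicate 4 read lower than IL-10- replicate 3 in 6 of the 9 probe sets that rose (Orc2 read 6.59 on replicate 3 and 6.58 on replicate 4), and in all 8 of the 5' probe sets of the added transcripts, of which dap in its r2 series read 9.68 and 9.91 in IL-10+ and 8.14 and 7.14 in IL-10- samples. The middle and 3' probe sets of each added transcript were also lower on replicate 4 than on replicate 3. This order was therefore not particular to the 5' end. At the 3' end, dap in its r2 series read 10.81 on replicate 3 and 10.48 on replicate 4. In the brightest probe sets of members replicate 4 was higher than replicate 3 in 36 of 46. The share of all probe sets on the array with either order was not counted, so these counts stand without a background. Where along the transcript each of these probe sets lies was not analysed here, and the part of the 5' difference in the rises was not tested.

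**Figure D4:**
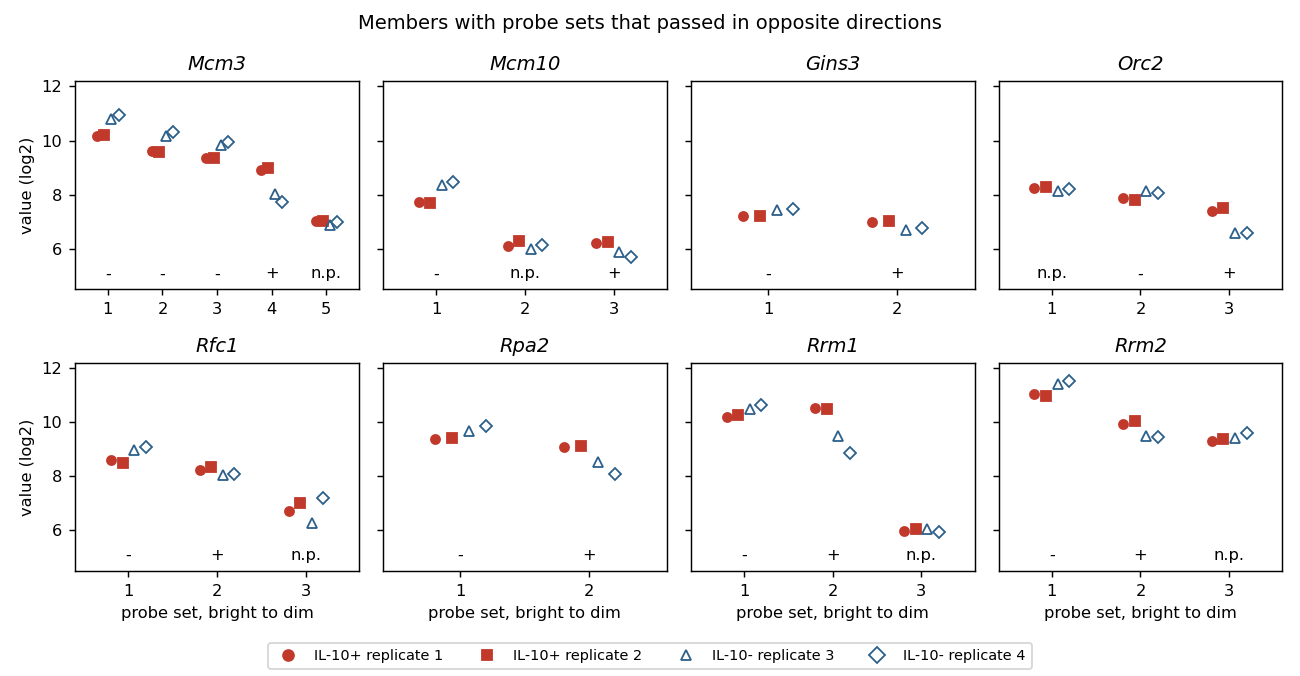
Values (log2, vertical axis) on the 4 arrays for each probe set, ordered from bright to dim, of the 8 members whose probe sets passed in opposite directions. Signs under the points give the call (- lower in IL-10+, + higher, n.p. not passed). In Rrm1 the brightest probe set is lower and the next is higher in IL-10+ samples by 1.32.

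Among the regulators of S-phase entry, the cyclin E genes went in opposite directions. Ccne1, which encodes cyclin E1, read 8.11 and 8.09 in IL-10+ and 8.73 and 8.84 in IL-10- samples (-0.69, standard error 0.07, adjusted p = 0.000277), and its other probe set fell by 0.83 on the log2 scale. Ccne2, which encodes cyclin E2, read 7.58 and 7.79 against 7.20 and 7.41 (0.38, standard error 0.10, adjusted p = 0.023). It had 1 probe set, the nearest arrays of the groups were at 7.58 and 7.41, and without IL-10+ replicate 2 it did not pass (adjusted p = 0.148). E2f2, an activating E2F factor, read 8.44 and 8.58 against 9.17 and 9.26 (-0.71, adjusted p = 0.00038), with its other probe set at -0.09. E2f1, the founding member of that family, differed by -0.16 with its brightest probe set (adjusted p = 0.15) and fell by 0.52 on the log2 scale with the next, which is nearly as bright (adjusted p = 0.000898). Of chromatin assembly factor 1, which places histones on new DNA, Chaf1b read 8.51 and 8.40 against 8.66 and 8.68 (-0.22, adjusted p = 0.0485). It did not pass without IL-10+ replicate 1 (0.0944) or 2 (0.333) or without IL-10- replicate 4 (0.0752), nor with its second probe set (0.12).

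Most members fell whether or not the promoter window held an E2F-type word. Of the 14 with a word, 11 fell, 1 rose (Rfc3) and 2 did not pass (Orc1 and Pola1), with a median of -0.63. Of 24 measured members whose window held none, 19 fell and 5 did not pass, with a median of -0.41. By role, the word stood in 5 of 8 helicase genes with a window, 3 of 5 origin genes, 3 of 6 polymerase and primase genes and in no gene of nucleotide supply. A CCAAT box stood in the window of all 8 helicase genes that have one. These are descriptions of letters and calls, with no test.

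Further genes of the replication pathway mostly fell as well. They were listed by role and not by how they moved, but with earlier results of these data known. Of 64 measured, 45 fell, 3 rose and 16 did not pass, with a median of -0.37, where 22.9% of all genes and 45.5% of those with a mean of 9 or more fell. With the second brightest probe set, 14 of 44 fell. Of all probe sets other than the brightest on the array, 13.4% fell and 20.0% rose. Genes that accompany the fork and alternative clamp loaders fell in 11 of 12 cases, led by Timeless, a fork protection gene (-0.82), and Rnaseh2a and Rnaseh2b, subunits of the enzyme that removes RNA from DNA (-0.68 and -0.58). Of 10 genes listed for chromatin and histones at replication, 8 were measured and all of these fell. Among them was Dnmt1, the maintenance DNA methyltransferase, which read 9.29 and 9.28 in IL-10+ and 10.49 and 10.61 in IL-10- samples (-1.26, adjusted p = 2.69e-05). Its partner Uhrf1 (-0.61) and the histone chaperone Rbbp7 (-0.53) followed, though the second probe set of Uhrf1 rose by 1.03. The brightest probe sets of Dnmt1 and Rbbp7 carry the suffix x.

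Controllers of replication were mixed, where 22.9% of all genes and 45.5% of those with a mean of 9 or more fell. Gmnn, which encodes geminin, the inhibitor of CDT1, differed by -0.70, Lrwd1, an origin-binding gene, by -0.58 and Mcm8, an MCM relative, by -0.30, and all of them passed. The brightest probe set of Lrwd1 carries the suffix x. Orc4, a subunit of the recognition complex, rose by 0.20 (adjusted p = 0.0479), a call lost in each of the 4 fits without an array (adjusted p from 0.0516 to 0.259). Of 9 firing kinases and loading factors 5 fell, with Ticrr (-0.53, second probe set 0.01) and Cdk1 (-0.42) the largest, and Cdc25a, the phosphatase that activates the cyclin E kinase, rose. Its brightest probe set read 8.35 and 8.29 in IL-10+ and 7.58 and 7.97 in IL-10- samples (0.55, adjusted p = 0.0112), and the next one fell by 0.63 on the log2 scale.

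The shares that fell of all genes (22.9%) and of those with a mean of 9 or more (45.5%) apply here too. Among further polymerase subunits 5 of 7 fell. The largest were Polg2 (-0.99) and Polg (-0.74), both of the mitochondrial DNA polymerase, and Pold3 of polymerase delta (-0.63). Pold4, the smallest subunit of polymerase delta, rose, with 9.51 and 9.58 in IL-10+ and 9.18 and 8.97 in IL-10- samples (0.47, adjusted p = 0.00467). In nucleotide metabolism 5 of 9 fell, led by Samhd1, which degrades deoxynucleotides (-0.78), Dtymk, thymidylate kinase (-0.76), and Shmt1 (-0.64, second probe set 0.04). Samhd1 acts against nucleotide supply. It fell, as did 4 of the 5 members of nucleotide supply by their brightest probe sets, Tyms excepted. Second probe sets of Rrm1 (1.32) and Rrm2 (0.53) rose. Of 11 E2F partners and pocket proteins 7 fell, among them the repressive factors E2f7 (-0.65) and E2f8 (-0.61) and the pocket protein gene Rbl2 (-0.53). The second probe set of E2f8 rose by 0.54, and that of Rbl2 read 0.13 and did not pass.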

How the data were processed

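RNA of 2 IL-10+ and 2 IL-10- samples was hybridized to Affymetrix Mouse Genome arrays, 1 per sample. The authors applied variance stabilization to the signal intensities. The deposited table holds 45101 probe sets, and its values are treated as log2. Variance stabilization compresses differences of dim probe sets. Leaving out 64 controls, limma 3.58.1 in R 4.3.3 (lmFit, eBayes, two-sided, no covariate) compared the groups over 45037 probe sets with Benjamini-Hochberg adjustment, after the step had been tested on simulated data. The prior had 5.44 degrees of freedom and the residual 2. The platform annotation names 1 gene for 34945 probe sets, several for 932 (not used) and lists no gene for 9160; RefSeq identifiers changed 0 symbols. Members, lists and tests were chosen with earlier results of these data known. By the naming rule, array values are given for up to 4 passing members with the largest difference per group, each that rose and those with opposite probe sets; members that did not pass are named with their difference, and up to 3 passing genes per further sublist and each that rose are named. Promoter windows came from RefSeq (GRCm38.p6). Alternatives covered normalization, filter, prior, choice of probe set, log base and each array left out. With 4 arrays, their number limits the precision. Figures used Python 3.11.15 and matplotlib 3.10.9.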

Additional observations from a re-analysis of the deposited data

Results flagged for a closer look

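Signals outside the main comparison gave 3 results. On IL-10+ arrays the spiked bacterial transcripts read higher at their 5' ends, by a median of 1.11 over 4 transcripts (first series of probe sets). For members whose brightest probe set fell, 7 other probe sets rose. The largest of these rises was that of the second probe set of Rrm1, 1.32.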

How the results depend on the processing

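Of the 36 members that fell, 28 also fell in all 4 fits with an array left out, and 27 under all 3 other normalizations. The 9 lost under a normalization, each of them after cyclic loess, were Mcm4, Gins3, Gins4, Prim1, Rfc2, Rpa2, Rrm1, Tk1 and Chaf1b. With an array left out, the number lower was 30 to 38, the number higher 1 to 3 and the median difference -0.50 to -0.39, and the number lower was 2 to 4 in nucleotide supply and 0 to 1 in chromatin assembly factor 1. A group left with 1 array was then assumed to vary like the other. The median difference of members was -0.32 after quantile normalization, -0.52 after median centring, -0.25 after cyclic loess normalization, -0.27 with each gene's probe sets averaged, -0.39 without the suffixes x and s and -0.21 with the second brightest probe set. Over all probe sets the median was -0.02 after quantile normalization, -0.07 after median centring and 0.00 after cyclic loess normalization. Cyclic loess normalization left 27 members lower and 2 of the 5 nucleotide supply genes. Shares of all genes, where given, were counted for the fit described first, and not for the alternatives or the natural-log reading. At least 2-fold falls with an adjusted p under 0.001 numbered 0 after quantile normalization, cyclic loess normalization, with the mean over probe sets and without the suffixes, and 8 if the values are natural logs. Chaf1b, the measured gene of chromatin assembly factor 1, left 0 lower after quantile or cyclic loess normalization, with an intensity trend in the prior, with the mean over probe sets and with the second brightest one.

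Another choice of probe set lowered most counts. With the second brightest, which 35 members have, 18 members fell and 6 rose. Of all probe sets other than the brightest on the array, 13.4% fell and 20.0% rose. By role, 7 of 11 fell in the helicase, 3 of 3 at the origin, 3 of 6 in polymerases and primase and 2 of 4 in clamp and loader. In single-strand binding and lagging-strand maturation 0 of 3 fell, in nucleotide supply 1, and among further replication genes 14 of 44. Directions then turned for Mcm10 (0.15), Cdc45 (0.02), Gins3 (0.26), Orc2 (-0.27), Pola2 (0.17), Rfc1 (0.23), Rpa2 (0.80), Rrm1 (1.32), Rrm2 (0.53, also without the suffixes), Chaf1b (0.12), Cdc25a (-0.63), Ticrr (0.01), Shmt1 (0.04), Uhrf1 (1.03), E2f8 (0.54) and Rbl2 (0.13). With the mean over probe sets, 5 members rose and 2 of nucleotide supply fell, and Gins3 (0.01), Rpa2 (0.20), Rrm1 (0.34) and Uhrf1 (0.21) turned, while Mcm3, Mcm10, Pola2, Rfc1, Rrm2, Chaf1b, Orc4, Cdc25a, Ticrr, Shmt1 and E2f8 no longer passed. The cause was not tested. No paired analysis was possible because the groups share no replicate number in the labels. The 4 probe sets of Tyms averaged 5.65 to 6.89 and lay near the array medians of 6.31 to 6.41; background signal was not analysed here.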
